A study of Mus musculus with 2 samples.

Results

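The DNA replication and mitosis genes described here are 43 genes of dividing cells, taken as a fixed list of gene symbols and joined between libraries by Ensembl identifier. Of these, 20 act in S phase (replication genes), 21 act in mitosis (mitosis genes), and Stmn1 and Hmgb2, which were counted with neither, are abundant in many dividing cells. A member was used if it had at least 20 UMIs (unique molecular identifiers, each counting 1 captured transcript) over both libraries. All 43 members did, with 318 UMIs for Ccne2 to 28144 UMIs for Hmgb2, among 13022 of 29413 shared genes with that many.

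The study profiled immune cells sorted by flow cytometry from lungs with metastases and sequenced by 10x Genomics 3′ single-cell RNA-seq. Both libraries came from female Balb/c mice that had received labelling 4T1 cells, a mouse mammary carcinoma line, by intravenous injection 7 days before the lungs were taken. The niche library holds cells labelled as niche immune cells, and the distal library holds cells labelled as distal lung immune cells. No allele or further treatment is given for either group, and all mice received the tumour cells. How many animals were used and how the sort was gated is not stated in the labels.

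Cells copy their DNA in S phase and divide in mitosis, and the 2 groups of genes serve these steps. Before S phase, Cdc6 and Cdt1 load the Mcm2 to Mcm7 helicase on replication origins, cyclin E (Ccne1, Ccne2) helps to start replication, and Gins2 is a subunit of the active helicase. The sliding clamp Pcna and its partner Pclaf work at the fork, while Rrm1, Rrm2, Tyms and Dut supply nucleotides and keep uracil out of DNA, Ung removes uracil, and Hells and Cdca7 remodel chromatin. In mitosis, cyclins A and B (Ccna2, Ccnb1, Ccnb2) drive the kinase Cdk1, Top2a untangles the chromosomes, Cenpa marks the centromere, and the kinases Aurka, Aurkb, Bub1 and Plk1 govern the spindle and its checkpoint. E2F factors control many replication genes, and mitosis genes are often controlled through a cell cycle homology region paired with CCAAT boxes. Lung-resident macrophages can renew by local division, activated T cells divide rapidly, and neutrophils in tissue no longer divide.

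Promoters of 4 members are shown because the motifs of the 2 groups differ: Pclaf and Pcna of the replication genes, and Top2a and Cenpa of the mitosis genes. Each runs from 250 bases before to 50 bases after the transcription start, 5′ to 3′ on the gene's strand, from RefSeq on build GRCm38.p6. They lie at chr9:65890073-65890372 on the plus strand (Pclaf), chr2:132253131-132253430 on the minus strand (Pcna), chr11:99024140-99024439 on the minus strand (Top2a) and chr5:30666636-30666935 on the plus strand (Cenpa). Capitals mark every match, on either strand, to the cell cycle homology region (TTTGAA or its other form TTCGAA), the CCAAT box (CCAAT) or 1 of 4 E2F motifs (TTTGGCG as the first form, TTTCGCG as the next, TTCCCGC as the third and TTCGCGC as the last).
Pclaf: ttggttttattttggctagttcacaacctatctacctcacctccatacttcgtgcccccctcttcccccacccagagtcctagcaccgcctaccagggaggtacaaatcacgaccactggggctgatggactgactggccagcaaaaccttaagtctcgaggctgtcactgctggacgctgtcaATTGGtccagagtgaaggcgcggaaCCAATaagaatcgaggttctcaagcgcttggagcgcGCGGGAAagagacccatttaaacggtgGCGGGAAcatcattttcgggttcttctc
Pcna: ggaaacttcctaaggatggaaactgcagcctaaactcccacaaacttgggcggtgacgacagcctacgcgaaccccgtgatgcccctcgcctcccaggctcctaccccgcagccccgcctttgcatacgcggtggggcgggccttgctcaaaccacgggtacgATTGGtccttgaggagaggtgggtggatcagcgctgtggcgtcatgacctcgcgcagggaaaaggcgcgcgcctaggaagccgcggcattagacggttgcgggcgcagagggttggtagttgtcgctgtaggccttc
Top2a: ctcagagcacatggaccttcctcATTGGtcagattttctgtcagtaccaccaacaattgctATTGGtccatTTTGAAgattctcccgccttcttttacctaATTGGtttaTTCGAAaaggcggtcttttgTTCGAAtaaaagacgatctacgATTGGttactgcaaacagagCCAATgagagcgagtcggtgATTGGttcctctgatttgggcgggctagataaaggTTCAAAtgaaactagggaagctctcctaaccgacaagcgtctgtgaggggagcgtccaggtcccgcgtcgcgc
Cenpa: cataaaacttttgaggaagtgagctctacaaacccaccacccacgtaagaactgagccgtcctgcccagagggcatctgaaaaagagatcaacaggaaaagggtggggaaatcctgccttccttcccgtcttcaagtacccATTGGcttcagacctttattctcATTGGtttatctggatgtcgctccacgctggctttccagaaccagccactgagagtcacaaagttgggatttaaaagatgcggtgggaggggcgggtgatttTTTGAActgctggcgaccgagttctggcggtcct
The Top2a promoter held 10 matches, 6 to the CCAAT box and 4 to the cell cycle homology region, and that of Cenpa held 2 and 1. The Pclaf promoter held 2 CCAAT boxes and 2 E2F motifs, and that of Pcna 1 CCAAT box.

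The same search over the members found in the RefSeq table, 36 of 43 (17 replication and 18 mitosis genes), set the groups apart. A cell cycle homology region was present in 14 of 18 mitosis promoters (77.8%) and 2 of 17 replication promoters (11.8%), against 19.2% of all 32851 promoters of the same length. An E2F motif was present in 3 of 18 mitosis promoters (16.7%) and 10 of 17 replication promoters (58.8%), against 7.76% of all. A CCAAT box was present in 16 of 18 mitosis and 9 of 17 replication promoters, against 37.4% of all. The form TTCGAA reads the same on both strands, TTTCGCG and TTCGCGC can overlap, and a match is a run of letters, not a bound site. Stmn1, Mcm4, Gins2, Tpx2, Ccna2, Aurkb and Ccne2 had no entry.

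The niche library held 3242 barcodes and 38036915 UMIs, and the distal library 3945 barcodes and 22323465 UMIs. After filtering, 3081 niche cells (median 11197 UMIs) and 3534 distal cells (median 5794.5 UMIs before doublet removal) were kept, and 4 barcodes occurred in both libraries. Cells were clustered without the members and other cell cycle genes, and clusters were named from marker genes as X-like classes. The interstitial macrophage-like class (C1qa, C1qb, C1qc and Trem2 among its markers) held 2154 niche and 369 distal cells, and the alveolar macrophage-like class 11 niche and 1204 distal cells. There were 36 niche and 369 distal T cell-like cells, and 59 niche and 171 distal conventional dendritic-like cells. With 1 library per group, nothing here has a replicate check: intervals are 95% and cover counting error only, and no p-values are given. The libraries also differ in Cell Ranger version and gene annotation, which cannot be told apart from the groups.

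**Figure D1:**
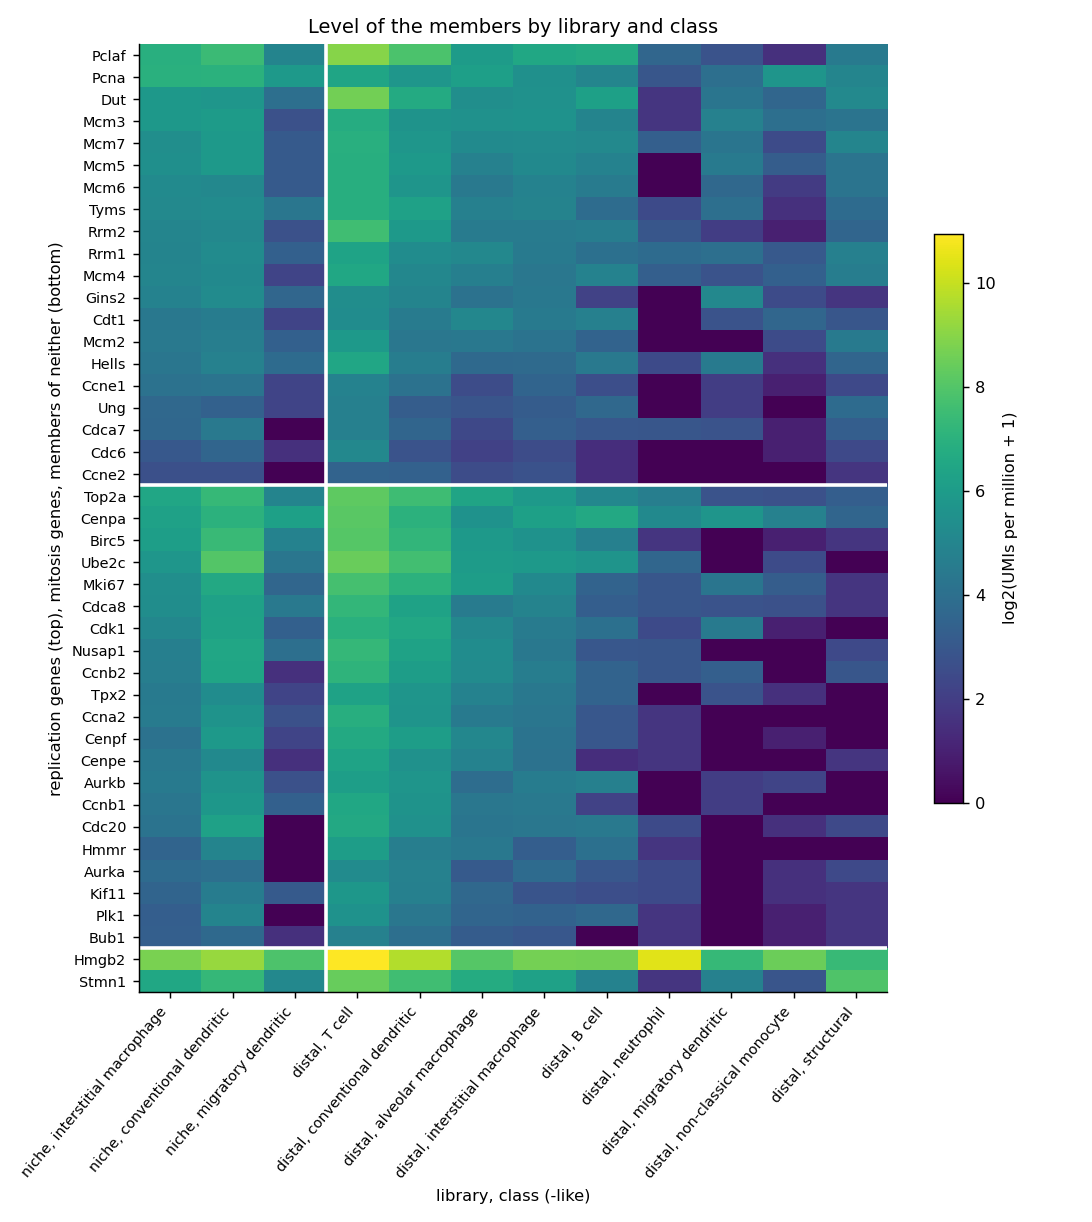
Level of each of the 43 members (rows) in the niche and distal classes (columns), as log2(CPM + 1), where CPM are UMIs of the gene per 1000000 UMIs of the class. Replication genes stand above, mitosis genes in the middle, and Hmgb2 and Stmn1 at the bottom. The column of distal T cells is the brightest for both groups, and most mitosis genes are near 0 in migratory dendritic, non-classical monocyte and structural cells of the distal library.

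In the niche library, interstitial macrophage-like cells held 78.6% of all replication UMIs and 77.0% of all mitosis UMIs, slightly less than their 80.4% of UMIs of all genes. In the distal library, T cell-like cells held 27.9% of the UMIs of each group with 8.13% of UMIs of all genes, and conventional dendritic-like cells 11.1% of replication and 14.7% of mitosis UMIs with 7.73%. Alveolar macrophage-like cells held 33.1% and 34.2% with 42.2% of UMIs of all genes, and distal interstitial macrophage-like cells 12% and 9.92% with 15.0%. Over all cells, replication genes summed to 765 CPM in the niche library, against 665 CPM in the distal library, and mitosis genes to 670 and 830 CPM.

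Per UMI of a class, the distal T cell-like cells were highest for both groups. Replication genes summed to 2279 CPM (2209 to 2351) and mitosis genes to 2854 CPM (2776 to 2934) in these cells. Conventional dendritic-like cells came next for mitosis genes, at 1621 CPM in the niche and 1583 CPM in the distal library, with replication genes at 898 and 955 CPM. The few distal NK cell-like cells, 39 in all, were at 1234 CPM for replication and 934 CPM for mitosis genes. Macrophage classes stood lower: replication and mitosis genes were at 748 and 642 CPM in niche interstitial macrophage-like cells, at 532 and 548 CPM in their distal counterparts, and at 521 and 674 CPM in distal alveolar macrophage-like cells. Distal B cell-like cells were at 493 and 374 CPM, and distal neutrophil-like cells at 75.8 and 132 CPM.

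**Figure D2:**
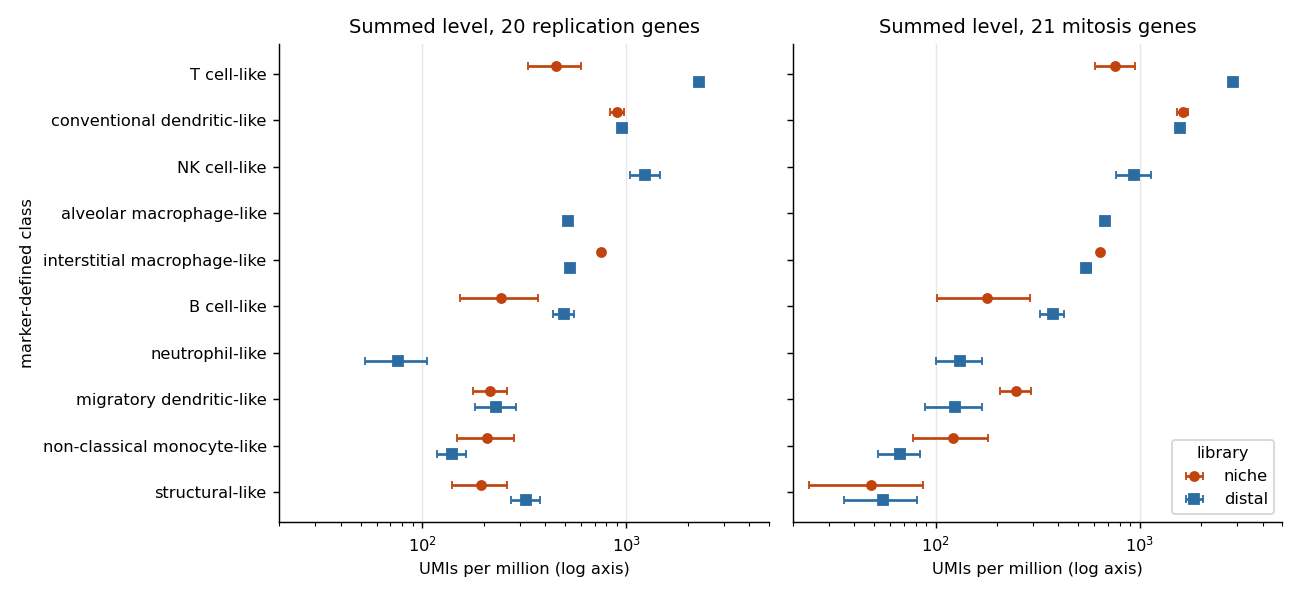
Summed level of the 20 replication genes (left) and 21 mitosis genes (right) in each class with at least 30 cells, in CPM on a log axis. Circles are the niche library, squares the distal library, and bars are exact 95% Poisson intervals. Distal T cell-like cells lie to the right of every other class, and non-classical monocyte-like and structural-like cells lie at the left for mitosis genes.

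All 43 members had their highest distal level in T cell-like cells, among the 8 distal classes with at least 50 cells. Across all 13022 genes 16.7% did. The interval lay apart from that of the next class for 14 of 20 replication genes, 17 of 21 mitosis genes and both Stmn1 and Hmgb2, against 4.01% of all genes. The members whose T cell interval overlapped the next class were Pcna and Cdt1 (next alveolar macrophage-like), Ung (next structural-like), and Ccne1, Ccne2, Gins2 and the mitotic kinases Cdk1, Aurka, Aurkb and Bub1 (next conventional dendritic-like).

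In the niche library only 3 named classes had 50 cells or more, interstitial macrophage-like, conventional dendritic-like and migratory dendritic-like. Among them, all 21 mitosis genes were highest in conventional dendritic-like cells, as were 30.8% of all genes. For 19 of the 21 the interval lay apart from the next class, against 3.82% of all genes. Of the replication genes, 17 of 20 were highest in conventional dendritic-like cells but only 1 with its interval apart, and 3 were highest in interstitial macrophage-like cells, as were 40.5% of all genes, with 0 intervals apart (4.53% of all). The niche dendritic-like class therefore led in mitosis transcripts, while most replication genes in it could not be separated from the macrophage-like level at this depth.

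Among replication genes, Pclaf, the Pcna-binding factor, was at 507 CPM (474 to 541) in distal T cell-like cells. It was at 176 CPM in niche conventional dendritic-like cells against 233 CPM in distal ones, at 121 CPM in niche interstitial macrophage-like cells against 91.6 CPM in distal ones, and at 63.6 CPM in distal alveolar macrophage-like cells. Dut, which removes dUTP, was at 389 CPM (360 to 419) in distal T cell-like cells and between 41.5 and 104 CPM in the dendritic-like and macrophage-like classes just named. The helicase subunits Mcm3, Mcm7 and Mcm5 were more even: 110, 120 and 118 CPM in distal T cell-like cells, and 56.7, 42.0 and 43.4 CPM in niche interstitial macrophage-like cells. Levels of different genes are not set against each other here, since counts were not scaled for length.

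Pcna, the sliding clamp, did not follow this pattern. It was at 86.9 CPM (73.7 to 102) in distal T cell-like cells, 71.7 CPM (66.3 to 77.4) in distal alveolar macrophage-like cells and 52.0 CPM in distal non-classical monocyte-like cells, where 0 of 231 cells thinned to 2000 UMIs had UMIs of 3 replication genes. In the niche library it was at 124 CPM (120 to 128) in interstitial macrophage-like, 128 CPM in conventional dendritic-like and 122 CPM in non-classical monocyte-like cells. Pcna was thus present in classes with few other replication transcripts.

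Among mitosis genes, Top2a was at 302 CPM (277 to 329) in distal T cell-like cells, 163 CPM in niche conventional dendritic-like cells against 188 CPM in distal ones, 88.5 CPM in niche interstitial macrophage-like cells against 58.7 CPM in distal ones, and 82.5 CPM in distal alveolar macrophage-like cells. Ube2c, the ubiquitin-conjugating enzyme of the anaphase-promoting complex, was at 352 CPM in distal T cell-like cells, 260 CPM in niche conventional dendritic-like cells against 198 CPM in distal ones, 52.4 CPM in niche interstitial macrophage-like cells against 58.1 CPM in distal ones, and 64.4 CPM in distal alveolar macrophage-like cells. Birc5 (survivin) and Cdca8 (borealin), both subunits of the chromosomal passenger complex, had the same order of classes at the top: 265 and 154 CPM in distal T cell-like cells, 172 and 75.2 CPM in niche and 148 and 78.3 CPM in distal conventional dendritic-like cells. Mki67, the Ki-67 protein that coats mitotic chromosomes, was at 210 CPM in distal T cell-like cells and 68.6 CPM in distal alveolar macrophage-like cells.

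A few members were also present where others were near 0. Cenpa, the centromeric histone, was at 26.9 CPM in distal non-classical monocyte-like and 35.7 CPM (20.4 to 57.9) in distal neutrophil-like cells. Hmgb2, a chromatin protein, was at 1407 CPM in distal neutrophil-like cells, against 1991 CPM in distal T cell-like and 838 CPM in distal conventional dendritic-like cells. Stmn1 (stathmin), which destabilises microtubules, was at 242 CPM in distal structural-like cells.

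Most T cell-like transcripts of both groups came from 1 of the 2 clusters of that class. In the distal library, cluster 7, whose leading genes include Cxcr6, Pdcd1, Icos and Tnfrsf4, was at 2607 CPM for replication and 3306 CPM for mitosis genes over 270 cells. Cluster 15, with Lef1 and Tcf7 among its leading genes, was at 307 and 135 CPM over 99 cells. Of the 36 niche T cell-like cells, 27 were in cluster 15 and 9 in cluster 7, and over both clusters the niche class was at 452 CPM for replication and 759 CPM for mitosis genes. No niche over distal ratio of the group sums was taken for T cell-like cells, which were too few in the niche library.

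Single cells were then scored. Each cell was thinned at random to 2000 UMIs, and a cell with UMIs of at least 3 different replication genes was called a replication cell, and one with at least 3 different mitosis genes a mitosis cell. In distal T cell-like cells, 87 of 307 (28.3%, exact binomial interval 23.4 to 33.7) were replication cells and 68 (22.1%, 17.6 to 27.2) were mitosis cells. The shares were 38.7% and 30.2% in cluster 7 and 1.18% each in cluster 15. In distal alveolar macrophage-like cells they were 8.65% (7.11 to 10.4) and 6.47% (5.14 to 8.01) of 1191 cells.

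Conventional dendritic-like cells had shares of 19.1% for replication and 23.4% for mitosis over 47 niche cells, and 14.1% and 17.6% over 170 distal cells. In the niche, interstitial macrophage markers summed to 5276 CPM in the 5 cells of replication only and 7152 CPM in the 4 of both. These markers summed to 2861 CPM in the 7 niche cells of mitosis only and 3040 CPM in the 31 of neither. In distal cells they were at 56.9, 6.34, 469 and 1103 CPM in the same order. The part of macrophage RNA in these shares was not tested. Neutrophil-like and B cell-like cells were taken as the background, as the level that free RNA from other cells could give. Non-classical monocyte-like cells are given beside them. Whether B cell-like cells were dividing was not tested. Of distal B cell-like cells 2 of 123 (1.63%, 0.198 to 5.75) were replication cells and 2 mitosis cells, although their summed replication level of 493 CPM was close to that of the distal macrophage-like classes. Of distal neutrophil-like cells 1 of 27 was both, and none of 231 distal non-classical monocyte-like cells was either, which allows a share of up to 1.30%. Intervals lay above those of the B cell-like shares for both groups in distal T cell-like, niche and distal conventional dendritic-like and niche interstitial macrophage-like cells, and for replication in distal alveolar macrophage-like cells. They overlapped the B cell-like intervals for mitosis in distal alveolar macrophage-like cells, and for both groups in distal interstitial macrophage-like, niche T cell-like and both migratory dendritic-like classes. In cluster 1 of the interstitial macrophage-like class, the distal replication share (0.926%) and the mitosis shares of both libraries (1.04% niche and 0.926% distal) were below 1.63%.

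Thinning left out shallow cells: 62 of 369 distal T cell-like, 333 of 360 distal neutrophil-like, 76 of 199 distal B cell-like, 13 of 1204 distal alveolar macrophage-like, and 37 niche and 6 distal interstitial macrophage-like cells. Without thinning, 32.5% of distal T cell-like and 24.6% of distal alveolar macrophage-like cells were replication cells, and 45.7% of niche and 22.5% of distal interstitial macrophage-like cells. For mitosis the unthinned shares were 23.6%, 9.30%, 24.8% and 13.6% in the same order. The unthinned neutrophil-like share was 0.278% for each group, from cells with a median of 1061.5 UMIs.

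**Figure D3:**
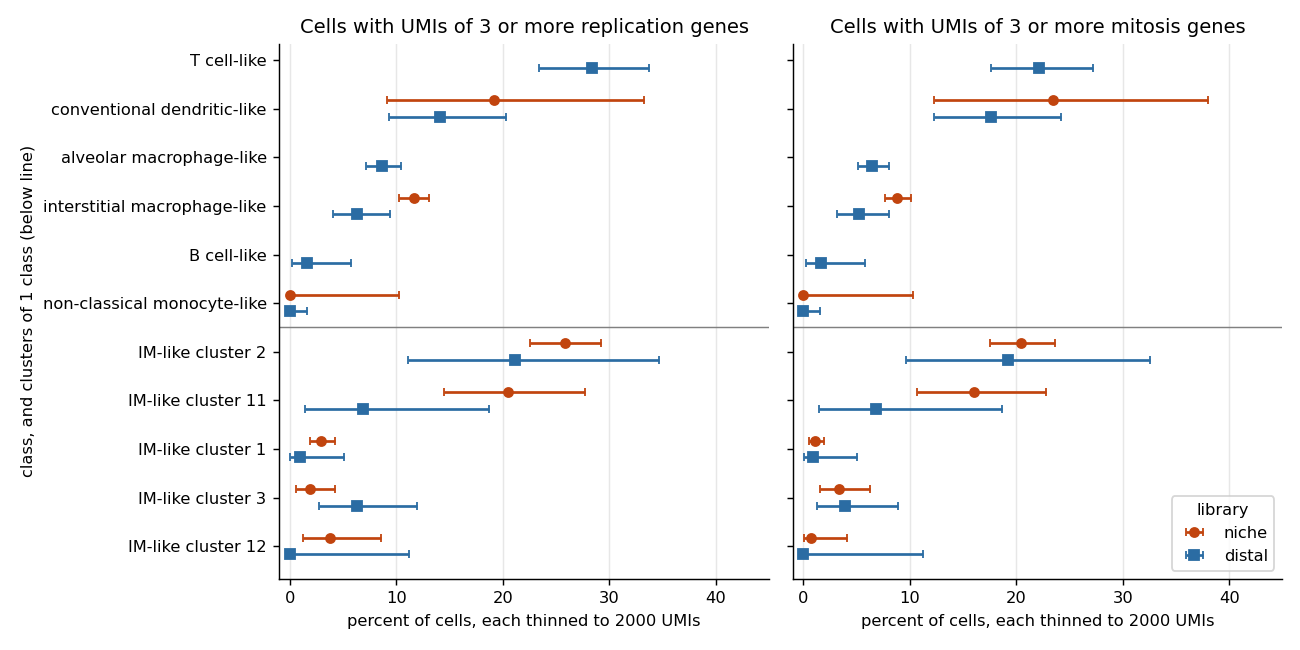
Percent of cells, each thinned to 2000 UMIs, with UMIs of at least 3 replication genes (left) or 3 mitosis genes (right), for 6 of the named classes and, below the line, for the 5 interstitial macrophage-like clusters. Circles are the niche library, squares the distal library, and bars are exact 95% binomial intervals. Groups with fewer than 30 cells are not drawn. Of the classes drawn, distal T cell-like cells have the highest share for replication, and clusters 2 and 11 hold higher shares than clusters 1, 3 and 12 in the niche library.

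The 2 states overlapped, and how far depended on depth. At 2000 UMIs, in niche interstitial macrophage-like cells 155 were replication cells only, 95 mitosis cells only and 91 both. In distal T cell-like cells 35 were replication cells only, 16 mitosis cells only and 52 both. Without thinning, few cells were mitosis cells only: 78 of the 535 mitosis cells among niche interstitial macrophage-like cells, and 5 of 87 among distal T cell-like cells. To see how each member followed the states, its own UMIs were left out when cells were sorted. The share of cells with a UMI of it was compared between mitosis cells and cells with replication but not mitosis genes. In this comparison of single members, cells of both states counted as mitosis cells. Replication cells were here only those with replication but not mitosis genes.

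In niche interstitial macrophage-like cells, 18 of 21 mitosis genes were detected in a higher share of mitosis cells, with intervals apart, against 0.916% of all genes. Cdc20, Bub1 and Plk1 were the exceptions, with shares of 12.5%, 7.03% and 9.19% in mitosis cells. Top2a was detected in 55.1% of mitosis cells, 17.8% of replication cells and 2.47% of cells with neither state. Mki67 was detected in 31.8%, 5.03% and 1.80% of these. In distal T cell-like cells 16 of 21 mitosis genes were so (background 0.742%), and in distal alveolar macrophage-like cells 20 of 21, all but Bub1 (background 1.2%). In distal interstitial macrophage-like cells, where no more than 19 cells were mitosis cells, 0 of 21 were (background 0.0489%), and of the replication genes only Mcm4 was higher in replication cells, with 6 of 14 such cells against 0 of 19 mitosis cells (background 0.0367%).

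Most replication genes overlapped between the states by this measure, 13 of 20 in niche interstitial macrophage-like, 19 in distal T cell-like and 18 in distal alveolar macrophage-like cells. In niche interstitial macrophage-like cells Mcm3, Mcm4, Mcm7, Ung and Hells were detected in a higher share of replication cells, against 0.238% of all genes: Mcm3 in 30.6% of replication and 15.1% of mitosis cells, and Mcm7 in 26.2% and 9.14%. Pclaf and Tyms, the thymidylate synthase, went the other way. Pclaf was detected in 58.1% of mitosis cells, 20% of replication cells and 2.69% of cells with neither state, and Tyms in 21.5%, 8.05% and 1.52%. Pclaf did so in distal T cell-like cells as well (70.6% of mitosis and 36.4% of replication cells), and in distal alveolar macrophage-like cells (68.8% and 13.8%), where Rrm2 joined it. No replication gene was detected in a higher share of replication cells in distal T cell-like or alveolar macrophage-like cells, with 0.148% (T cell-like) and 0.343% (alveolar macrophage-like) of all genes so.

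Pcna was among the 13 replication genes that overlapped in niche interstitial macrophage-like cells, at 36.0% of mitosis and 41.0% of replication cells, and it was also detected in 14.5% of cells with neither state. In distal alveolar macrophage-like and T cell-like cells with neither state, Pcna was detected in 10.9% and 3.90%. Stmn1 and Hmgb2 were both detected more often in mitosis cells, Stmn1 in 53.2% against 27.1% of replication cells.

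**Figure D4:**
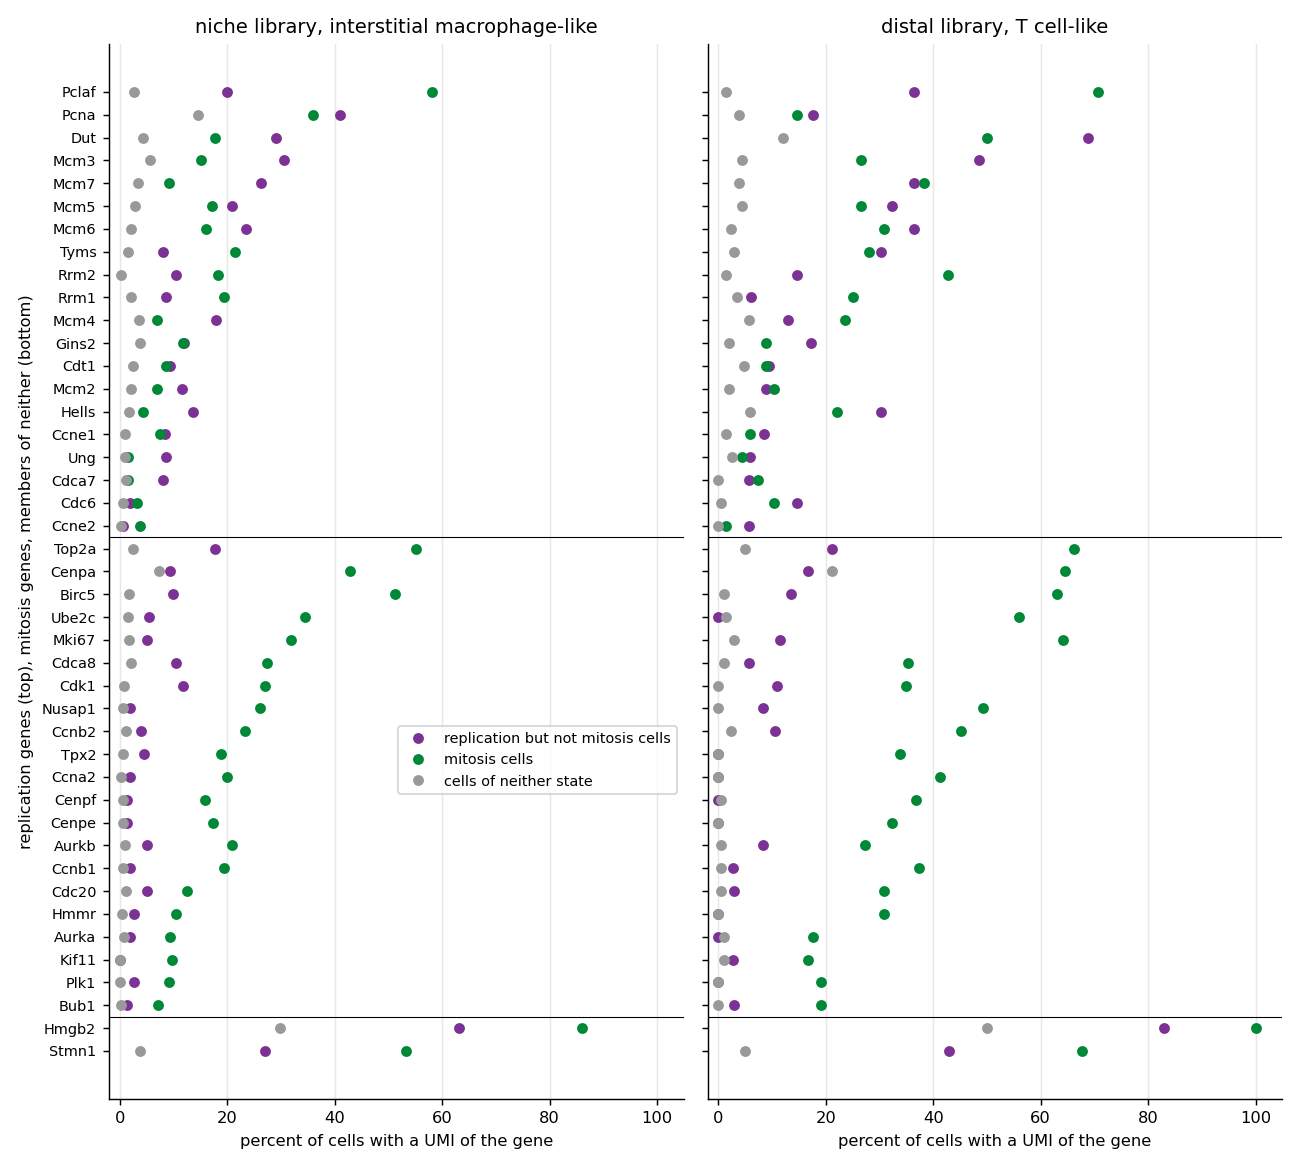
Percent of thinned cells with a UMI of each member, for mitosis cells (green), cells with replication but not mitosis genes (purple) and cells with neither state (grey), in niche interstitial macrophage-like cells (left) and distal T cell-like cells (right). Each gene was left out when cells were sorted for its own row. Mitosis genes are highest in mitosis cells, and Pclaf, at 58.1% and 70.6% of mitosis cells in the 2 panels, lies with them.

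Further cell cycle genes, not among the 43, followed the same cells. In cells with either state, 36 of 36 other replication genes and 45 of 45 other mitosis genes were at least 1.5-fold higher than in cells with neither state in niche interstitial macrophage-like cells, with intervals that left out 1, against 11.3% of all genes higher. In the distal library the counts were 29 of 30 and 32 of 32 for interstitial macrophage-like cells (background 9.48%), 35 of 36 and 45 of 45 for alveolar macrophage-like cells (11.6%), and 30 of 32 and 42 of 42 for T cell-like cells (19.8%). The histone-transcript binding protein Slbp was at 137 CPM in niche interstitial macrophage-like cells with either state and 58.7 CPM in those with neither, and the condensin subunit Smc4 at 181 and 31.9 CPM.

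Genes that drive G1 followed in part. They were higher for 9 of 11 in niche interstitial macrophage-like, 5 of 10 in distal interstitial macrophage-like, 6 of 11 in distal alveolar macrophage-like and 7 of 10 in distal T cell-like cells. Cdk4, the cyclin D kinase, was higher in all 4, with 187 against 90.9 CPM in niche interstitial macrophage-like cells and 198 against 90.3 CPM in distal T cell-like cells. Its partner differed by class. Ccnd1 was at 169 CPM in niche interstitial macrophage-like cells with either state and 91.5 CPM in those with neither, while Ccnd2 was at 85.4 and 91.4 CPM there. In distal T cell-like cells Ccnd2 was lower in cells with either state, at 163 against 419 CPM, and in distal alveolar macrophage-like cells it was at 421 against 571 CPM, below 1.5-fold.

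Cell cycle inhibitors were mixed. Of 14, 3 were higher and 5 lower in niche interstitial macrophage-like cells with either state (background 5.8% lower). In distal cells 2 and 2 of 10 moved in interstitial macrophage-like cells (5.71% lower), 3 and 1 of 11 in alveolar macrophage-like cells (2.41%), and 4 and 4 of 11 in T cell-like cells (12.3%). The antiproliferative gene Btg2 was lower in all 4, at 286 against 463 CPM in niche interstitial macrophage-like cells and 193 against 620 CPM in distal T cell-like cells. Btg1, its relative, was at 352 CPM in distal T cell-like cells with either state and 1796 CPM in those with neither. Cdkn1a, which encodes p21, was lower in niche interstitial macrophage-like cells, at 204 against 330 CPM.

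Cells with either state were also deeper, with medians of 18827 to 23724 UMIs against 11753.5 UMIs for cells with neither in niche interstitial macrophage-like cells, and 5838 to 11066 against 2693 UMIs in distal T cell-like cells. All 6 interstitial macrophage markers were detected in the niche interstitial macrophage-like cells of either state, and summed to 11825 to 13014 CPM, against 10765 CPM in those with neither. The 7 carcinoma markers (Epcam and keratin and claudin genes among them) summed to 4.17 to 9.06 CPM against 10.0 CPM. T cell markers summed to 122 CPM in niche cells of both states, 66.3 CPM in those of replication only and 74.1 CPM in those of mitosis only, against 60.2 CPM in those with neither. In distal interstitial macrophage-like cells they summed to 352 CPM in the 10 cells of mitosis only, 101 CPM in cells of both and 157 CPM in those of replication only, against 183 CPM. Neutrophil markers were at 148 CPM in niche cells of mitosis only, 15.9 CPM in those of both and 48.1 CPM in those of replication only, against 96.6 CPM. The part of other cell types and of doublets in these values was not tested.

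The study's own comparison sets niche against distal immune cells of metastatic lungs. It was made here in the 2 named classes with at least 50 cells in each library. In interstitial macrophage-like cells, replication genes summed to 748 CPM in the niche library against 532 CPM in the distal one (log2 ratio 0.49, 0.42 to 0.56). Mitosis genes summed to 642 CPM in the niche library against 548 CPM in the distal one (log2 ratio 0.23, 0.16 to 0.30), and this ratio was -0.17 where cells were clustered with cell cycle genes kept. The median log2 ratio of single genes was 0.39 for replication and 0.23 for mitosis genes, beside -0.02 for all 11510 genes tested. Of the replication genes 18 of 20, and of the mitosis genes 14 of 21, had a log2 ratio above 0.

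A gene was called when it differed by at least 1.5-fold and its interval left out 1. In niche interstitial macrophage-like cells, 3 of 20 replication genes were called higher and 0 lower, against 4.13% higher and 6.13% lower of all genes. They were Pcna, the helicase subunit Mcm4 (31.2 CPM in the niche and 19.1 CPM in the distal library, log2 ratio 0.70, 0.34 to 1.10) and Ccne1 (16.6 and 10.5 CPM, 0.65, 0.17 to 1.22). Of the mitosis genes 2 of 21 were called higher and 0 lower: Top2a, at 88.5 CPM in the niche and 58.7 CPM in the distal library (0.59, 0.38 to 0.81), and the spindle motor Kif11 (10.5 and 6.15 CPM, 0.74, 0.12 to 1.5). Most members of both groups differed by less than 1.5-fold, and the counts moved with the clustering: 0 to 5 mitosis genes and 2 to 8 replication genes were called higher across alternatives, and Top2a was at -0.08 with cell cycle genes kept in the clustering.

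The other members with the most UMIs lay below the call. Pclaf was at 121 CPM in the niche and 91.6 CPM in the distal library (log2 ratio 0.39, 0.22 to 0.57), Dut at 57.1 and 45.8 CPM (0.31), Mcm3 at 56.7 and 46.7 CPM (0.27), Mcm5 at 43.4 and 35.4 CPM (0.29) and Mcm7 at 42.0 and 37.8 CPM (0.14, -0.12 to 0.43). Birc5 was at 69.8 and 47.3 CPM (0.56, 0.32 to 0.81), Cdca8 at 39.9 and 28.9 CPM (0.46), Mki67 at 41.7 and 35.4 CPM (0.23, -0.04 to 0.53), Cenpa at 75.9 and 74.1 CPM (0.03, -0.16 to 0.23) and Ube2c at 52.4 and 58.1 CPM (-0.15, -0.37 to 0.08). The intervals of Mcm7, Mki67, Cenpa and Ube2c held 0.

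**Figure D5:**
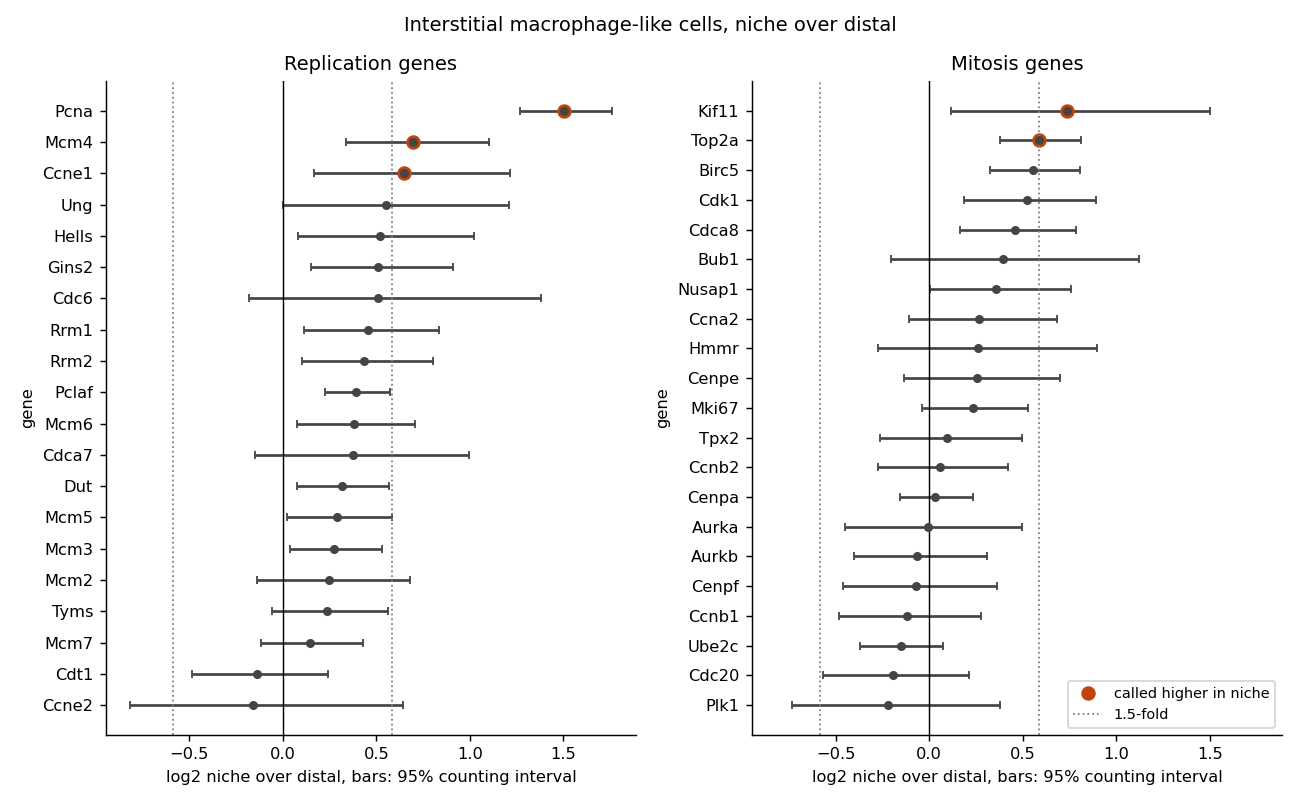
Log2 ratio of niche over distal interstitial macrophage-like cells for the 20 replication genes (left) and 21 mitosis genes (right), with 95% counting intervals. Dotted lines mark 1.5-fold, and coloured points are the 5 genes called higher in the niche library. Pcna, at 1.5, lies apart from the other members.

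Pcna stood apart from every other replication gene. In niche interstitial macrophage-like cells it was at 124 CPM, against 43.7 CPM in distal ones, with a log2 ratio of 1.5 (1.27 to 1.76) that lay between 1.49 and 1.57 under every alternative run. Among the 7 named classes with at least 30 cells in each library its ratio was above 0 in 6, and its interval lay above 0 in 5: interstitial macrophage-like, conventional dendritic-like (1.26), migratory dendritic-like (1.83), non-classical monocyte-like (1.24) and structural-like (1.19). It was 0.93 in B cell-like cells (-0.95 to 2.32) and -0.27 in T cell-like cells (-1.71 to 0.71). The T cell-like value rests on 7 UMIs in 36 niche cells. All replication genes of that class summed to 452 CPM in the niche and 2279 CPM in the distal library, with a different mix of its 2 clusters. After thinning, 0 of 25 structural-like and 0 of 34 non-classical monocyte-like niche cells were replication cells, and 1 of 79 and 0 of 231 distal ones. The niche counts of 0 allow shares of up to 12% and 8.82%. Without thinning, 4 of 36 and 2 of 38 niche cells were replication cells. The difference in Pcna was thus also seen in classes where few replication cells were found, but whether these classes were dividing was not tested. No gene held by 1 annotation only shares exon bases with Pcna on the same strand. That check does not cover transcript ends or how reads were assigned. The part of the different annotations and Cell Ranger versions in this ratio was not tested. Without Pcna, a choice made after the data were seen, the replication sum had a log2 ratio of 0.35 (0.28 to 0.43), with 2 of 19 genes called higher.

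More niche than distal interstitial macrophage-like cells carried these genes at matched depth. Replication cells made up 246 of 2117 (11.6%, 10.3 to 13.1) in the niche and 23 of 363 (6.34%, 4.06 to 9.36) in the distal library, a ratio of 1.83 (1.19 to 2.95), or 1.59 (1.02 to 2.59) without Pcna. Mitosis cells made up 186 (8.79%, 7.61 to 10.1) in the niche and 19 (5.23%, 3.18 to 8.05) in the distal library, a ratio of 1.68 (1.05 to 2.85). The lower bounds of these ratios were close to 1, and the replication ratio was 1.11 with cells thinned to 1000 UMIs and 1.10 with at least 5 different genes required.

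The class differed in its clusters between libraries. Cluster 2, with C1qa, C1qb and C1qc among its leading genes, held 32.9% of niche and 14.6% of distal cells of the class, while cluster 3, with Fabp5 and Trem2 among them, held 12.7% of niche and 34.7% of distal cells. In cluster 2, 25.8% of niche and 21.2% of distal cells were replication cells, and 20.5% and 19.2% were mitosis cells. In cluster 1, with Ly6i, Cfb and Cxcl9 among them, 25 of 864 niche cells (2.89%) were replication cells against 1 of 108 distal ones (0.926%). In cluster 3 they were 5 of 270 (1.85%) against 8 of 128 (6.25%). The ratios of these shares were 3.125 (0.512 to 128) and 0.296 (0.0763 to 1.03), and both intervals held 1. With each cluster weighted as in the distal library, 8.06% of niche cells would be replication cells and 6.44% mitosis cells, against 6.36% and 5.26% of distal cells. With each cluster weighted as in the niche library, 8.63% of distal cells would be replication cells and 7.70% mitosis cells, against 11.6% and 8.79% of niche cells. These weighted shares have no intervals. The distal replication shares of clusters 1, 11 and 12 rest on 1 of 108, 3 of 44 and 0 of 31 cells. The part of the cluster mix in the difference between libraries was not tested.

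Within cluster 2 the summed mitosis genes went the other way, but the share of mitosis cells did not. The mitosis genes summed to 1128 CPM in 709 niche cells and 1664 CPM in 54 distal cells, a log2 ratio of -0.56 (-0.65 to -0.47). Of the 21 genes 9 were called lower and 0 higher, against 3.23% of all genes lower. These intervals count UMIs and do not cover the spread between cells, and 10 of 52 thinned distal cells were mitosis cells. The ratio of the mitosis shares was 1.06 (0.562 to 2.27). Ube2c was at 95 CPM in the niche and 222 CPM in the distal cells of this cluster (-1.23, -1.48 to -0.96). Replication genes there were at 1190 and 1232 CPM (-0.05, -0.15 to 0.06), with 1 higher (Pcna) and 2 lower (Mcm7 and Ccne2), against 3% of all genes higher. In cluster 1 the log2 ratios of the sums were 0.71 (0.48 to 0.96) for replication and 0.03 (-0.22 to 0.29) for mitosis genes, with 3 of 19 replication genes higher and 0 lower, against 3.21% higher and 3.78% lower of all genes. In cluster 3 they were -0.44 (-0.59 to -0.28) and -0.39 (-0.57 to -0.21), with 6 of 17 replication and 2 of 17 mitosis genes lower, 1 replication gene (Pcna) higher, against 3.89% lower and 4.16% higher of all genes. Clusters 11 and 12 had fewer than 50 distal cells (44 and 32), so no ratios of the sums were taken there. In cluster 11 replication genes were at 1031 CPM (997 to 1066) in the niche and 538 CPM (477 to 604) in the distal library. Mitosis genes there were at 863 and 404 CPM. In this cluster 32 of 156 niche cells (20.5%) and 3 of 44 distal cells (6.82%) were replication cells. The share ratios were 3.01 (0.941 to 15.4) for replication and 2.35 (0.717 to 12.2) for mitosis cells, and both intervals held 1. In cluster 12 replication genes were at 340 CPM in the niche and 116 CPM in the distal library. Mitosis genes there were at 146 CPM (127 to 167) in the niche and 83.2 CPM (49.3 to 132, from 18 UMIs) in the distal library. The mitosis sum was thus higher in the niche library in cluster 11 and lower in clusters 2 and 3. Its ratio had an interval that held 0 in cluster 1, and the intervals of the 2 libraries overlapped in cluster 12.

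The further cell cycle genes of interstitial macrophage-like cells were higher in sum in the niche library by about as much as the mitosis members. The other replication genes summed to 892 CPM in the niche and 744 CPM in the distal library (log2 ratio 0.26, 0.20 to 0.32), and the other mitosis genes to 2217 and 1917 CPM (0.21, 0.17 to 0.25). Of the other replication genes 4 of 36 were higher and 0 lower in the niche library, of the other mitosis genes 5 of 45 higher and 1 lower, and of the G1 genes 1 of 11 in each direction, against the 4.13% higher and 6.13% lower of all genes. Slbp was at 78.2 CPM in the niche and 78.1 CPM in the distal library, and Rfc2, a clamp loader subunit, at 91.1 and 73.8 CPM. The histone variant H2afz was at 1255 and 1150 CPM and the tubulin Tubb4b at 169 and 132 CPM, both below 1.5-fold. The inhibitors summed to 1586 CPM in the niche and 2025 CPM in the distal library (log2 ratio -0.35, -0.39 to -0.32), with Btg2 at 419 and 626 CPM. Of the 14 inhibitors, 1 was called higher and 0 lower.

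Other cell types in these sums were followed by their markers. In interstitial macrophage-like cells the 7 carcinoma markers summed to 9.09 CPM in the niche library (7 of 7 detected, 274 UMIs) and 6.46 CPM in the distal library (6 of 7, 21 UMIs, Cldn4 at 0). T cell markers, all 5 detected in both libraries, summed to 66.3 CPM in the niche and 185 CPM in the distal cells. Neutrophil markers, all 6 detected in both, summed to 90.3 CPM in the niche and 291 CPM in the distal cells, and alveolar macrophage markers (7 of 8 in each, Krt79 at 0) to 14.8 and 67.0 CPM. Their part in the differences was not tested. Without cells that held at least 2 UMIs of the carcinoma markers, the replication sum had a log2 ratio of 0.49 and the mitosis sum of 0.22.

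In conventional dendritic-like cells the intervals of both sums held 0. Replication genes were at 898 CPM in the niche and 955 CPM in the distal library (log2 ratio -0.09, -0.22 to 0.04), and mitosis genes at 1621 and 1583 CPM (0.03, -0.07 to 0.13). Pcna was higher in the niche library, at 128 against 53.8 CPM (1.26, 0.82 to 1.69), while 3 of the 19 replication genes tested were lower, against 5.56% higher and 6.06% lower of all genes. They were Tyms at 38.3 CPM in the niche and 75.3 CPM in the distal library (-0.96, -1.62 to -0.38), Dut at 53.3 and 104 CPM (-0.95, -1.5 to -0.46) and the ribonucleotide reductase subunit Rrm2 at 34.2 and 59.8 CPM (-0.79, -1.5 to -0.16). Rrm1, the other subunit, was at 38.3 and 38.9 CPM (-0.01, -0.72 to 0.64). Of 21 mitosis genes only Cdc20, the activator of the anaphase-promoting complex, was called, at 75.2 CPM in the niche and 46.0 CPM in the distal library (0.71, 0.18 to 1.23). The share ratios of 1.36 (0.555 to 3.0) for replication and 1.33 (0.600 to 2.72) for mitosis cells rest on 47 niche cells. In this class all 6 interstitial macrophage markers were detected in both libraries and summed to 3676 CPM in the niche and 799 CPM in the distal library, and their part in these differences was not tested.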

How the data were processed

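Raw UMI counts per gene and barcode were deposited by the authors, made with Cell Ranger 3.0.2 (distal) and 6.0.0 (niche) per the file headers; the submitters' processing notes name Cell Ranger 3.02, Seurat 4.1.1, RSEM, Bowtie2 and the mm10 (GRCm38) build. The gene lists hold 32285 (niche) and 30149 (distal) rows; 29413 shared Ensembl identifiers were used, 27462 with the same symbol. The members and the other gene lists were chosen with earlier results of these data known.

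Kept barcodes had 200 genes or more and no more than 10% of UMIs from mitochondrial genes. Scrublet called 0 niche and 6 distal doublets (0.0906% of 6621 cells), which is taken as not having worked; those 6 were removed. Cells were clustered jointly (scanpy 1.11.5, leidenalg 0.10.2, Python 3.11.15) with 2000 variable genes, 30 components, 20 neighbours and resolution 1.0, without 214 cell cycle and histone genes, into 25 clusters. Presence of a marker meant 0.15 or more of its highest cluster level and detection in 0.1 or more of cells, and naming needed 0.75 or more of a class's markers; these thresholds were set after the clusters were seen. 1 marker gene is not reported by name here. The names are rebuilt here and can differ from the study's own.

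UMIs were summed per class as CPM with exact Poisson intervals. Ratios added 0.5 UMI to each sum and have exact conditional binomial intervals. Calls were run on simulated Poisson counts with known folds. These counts hold no spread between cells, animals or libraries, so the run checks the calculation only. Shares have Clopper-Pearson intervals, a share of 0 allows up to 3 counts, and all intervals cover counting error only. Given in full are the 6 members with the most UMIs in each group and those called against their group's majority; of other lists, the 3 genes with the most UMIs. Single genes named beyond these were chosen after their values were seen. Alternatives are in the closing section.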

Additional observations from a re-analysis of the deposited data

How the results depend on the processing

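Of the comparisons of the main results with an alternative, 128 stayed within 1 counting interval (or 1.5 times a count) and 39 moved. Thinning cells to 1000 UMIs gave T cell-like shares of 14.5% (replication) and 13.4% (mitosis) in the distal library, an alveolar macrophage-like replication share of 3.92%, and a niche over distal replication ratio of 1.11 in interstitial macrophage-like cells. Thinning to 4000 UMIs gave 76.5%, 56.3% and 14.7% for the first 3, with shallower cells left out. Without thinning the alveolar macrophage-like shares were 24.6% and 9.30%. Requiring 2 genes gave replication shares of 36.5% (T cell-like) and 16.1% (alveolar macrophage-like). Requiring 5 genes gave 15.0% and 3.11%, a T cell-like mitosis share of 16.6%, and a replication ratio of 1.10.

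In interstitial macrophage-like cells, clustering with cell cycle genes kept gave a mitosis sum of -0.17 (log2 niche over distal), a median mitosis ratio of -0.16, Top2a at -0.083, and 0 mitosis and 6 replication genes higher. Resolution 0.5 gave sums of 0.36 (mitosis) and 0.66 (replication), with 5 and 8 genes higher, and resolution 2.0 a mitosis sum of 0.10 with 0 higher. Leaving out the highest 5% of doublet scores, cells with 2 or more carcinoma marker UMIs, or mitochondrial and ribosomal protein genes each left 1 mitosis gene higher. Chosen after seeing the data, counting the Folr2-led cluster with the class gave a mitosis sum of 0.059, with 1 mitosis and 5 replication genes higher, and leaving out Pcna gave a replication sum of 0.35 and an alveolar macrophage-like replication share of 6.80%. The cause was not tested.

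Distal alveolar macrophage-like mitosis levels were 699.7 CPM with cell cycle genes kept in the clustering, 762 CPM at 5% mitochondrial UMIs, 700.2 CPM without high doublet scores, and 645 CPM (replication 503 CPM) without cells with carcinoma marker UMIs. At 5% mitochondrial UMIs the T cell-like levels were 2517 CPM (replication) and 3128 CPM (mitosis). No paired analysis was possible because each group has 1 library and no result comes from a test.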

Other observations

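Replication and mitosis genes were also present, at differing levels, in clusters outside the named classes. Cluster 8, which had Folr2, Ccl7 and Ccl12 among its leading genes, was at 1298 CPM for replication and 1118 CPM for mitosis genes in 147 niche cells, and at 789.6 and 1029 CPM in 129 distal cells. At 2000 UMIs, 27.5% of niche and 18.3% of distal cells of this cluster were replication cells, a ratio of 1.5 (0.877 to 2.64), and 16.2% and 10.3% were mitosis cells. Cluster 14, which carried macrophage markers beside Csf3r and Treml4, was at 709 CPM for replication genes in 58 niche cells and 216 CPM in 79 distal cells. There 8 of 58 niche and 1 of 78 distal cells were replication cells. Mitosis genes of cluster 14 were lower, at 466 CPM in the niche and 74.7 CPM in the distal library. Mitosis cells made up 3 of 58 niche and 0 of 78 distal cells. Cluster 5, 320 niche and 14 distal cells with medians of 931.5 and 1927 UMIs, was kept out of the named classes for its few UMIs. It was at 1210 CPM for replication and 1259 CPM for mitosis genes in the niche library. Its distal cells were at 295 CPM for replication (17 UMIs) and 1094 CPM for mitosis genes (63 UMIs). Of its niche cells, 276 were too shallow to be thinned. Of the 44 left, 21 (47.7%, 32.5 to 63.3) were replication cells.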
